A study of Caenorhabditis elegans with 2 samples.

Results

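The peaks described here lie on chromosome X of the nematode Caenorhabditis elegans, away from transfer RNA (tRNA) genes, in a ChIP-seq experiment on UNC-130, a forkhead transcription factor. They are the entries on X of the peak list called on pooled reads whose summit, the point of strongest signal in a peak, lay over 500 bp from the 5′ end of every annotated tRNA gene. This rule took 1513 of the 1747 peaks on X and 1513 of the 16959 entries of the pooled list. The pooled list is a relaxed one that, per its label, includes background beside peaks. The other 234 peaks on X lay at tRNA genes and were left out. The peaks they are set beside below are the 14901 autosomal peaks that pass the same distance rule. The label fits the entries by construction, since chromosome and distance are all that it states.

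Per the labels, chromatin came from hermaphrodite L4 animals taken whole 48 h after synchronisation by L1 starvation, and an anti-GFP antibody was used on 2 biological replicates that form 1 group. The strain, AGK541, carried the insertion armSi1 on chromosome II, in which the mex-5 promoter drives UNC-130::GFP with the tbb-2 3′ UTR beside cb-unc-119(+), together with unc-119(ed3) on III and niDf199 on IV. The labels give the tag as GFP, as eGFP and as GFP-FLAG. The mex-5 promoter is active in the germline, whereas the material was whole animals, so the peaks are those of a fusion expressed from another gene's promoter, and cell types cannot be told apart. No strain without the fusion and no second condition was analysed here, so no test between groups could be made and peaks are set against peaks. The lists give no read counts and the depth is unknown. Signal is the authors' own value per peak, on an unstated scale, and was used for ranks within each list alone.

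As background, chromosome X of C. elegans is regulated apart from the autosomes in germline and soma. In the germline it is largely silent and carries few genes used there, while in the somatic cells of hermaphrodites the dosage compensation complex, a condensin-like machine, binds X and lowers its transcription. The complex is recruited at sites on X that hold a short G-rich motif and spreads from them to the rest of the chromosome. Forkhead factors bind other letters, most often variants of TGTTTAC.

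The core of that dosage compensation motif, the 8-letter word GCGCAGGG, stood within 50 bp of several of the strongest summits on X. The sequences below are shown because the word was more frequent at the strongest X peaks than at the weaker ones, as counted further on. They are the 9 of the 100 X peaks of highest signal that hold the word, and they are 30 bases each from the RefSeq WBcel235 assembly, which ce11 also names, read 5′ to 3′ on the strand given, with the word in capitals.
chrX:11094215-11094244, minus strand: gggaaccattcGCGCAGGGacacctcactg
chrX:1837881-1837910, plus strand: gccactcggccGCGCAGGGcacggaaatgt
chrX:16682161-16682190, minus strand: aagaaaacatcGCGCAGGGaacatcaaatt
chrX:5429579-5429608, plus strand: cattaaatttaGCGCAGGGaggacgccgtt
chrX:806739-806768, plus strand: taaaccgatacGCGCAGGGaaaaaaaaata
chrX:2997112-2997141, minus strand: ttaaatttatcGCGCAGGGaggaagtagcc
chrX:4209255-4209284, minus strand: ttgccgctatcGCGCAGGGacacctctttc
chrX:14525889-14525918, minus strand: tattgcctatcGCGCAGGGacagatgtggt
chrX:1345045-1345074, plus strand: caatgtcattcGCGCAGGGcagctgagccc

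A close variant of the word, GCGAAGGG, was noticed among the same summits and counted after the sequences had been seen. The sequences below, in the same form with the variant in capitals, are those of the 2 IDR peaks that hold it and of 2 peaks where it stands close to a copy of the first word listed above.
chrX:6296500-6296529, plus strand: aattattttaaGCGAAGGGacacccaatcg
chrX:9465872-9465901, plus strand: agaaaatttagGCGAAGGGagagatactga
chrX:4209281-4209310, plus strand: gcaattttatcGCGAAGGGagctcaggtgc
chrX:14525914-14525943, plus strand: caatagtcatcGCGAAGGGacacattttgc

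Peaks on X away from tRNA genes seldom reached the top of the pooled list. Only 19 of the 1513 (1.26%, 95% Wilson interval 0.805 to 1.95) were in the list that the authors made with the irreproducible discovery rate (IDR) method, against 1410 of 14901 autosomal peaks (9.46%, 9.00 to 9.94) and 8.71% of both sets together. Among the single autosomes the share ran from 8.22% on V to 10.3% on II, so X stood below each of them. At tRNA genes the gap was smaller, with 91 of 234 X peaks (38.9%) in the IDR list and 128 of 292 autosomal ones (43.8%). The IDR list holds the pooled peaks of highest signal, so this count and the ranks that follow are 1 measurement stated in several ways. The intervals cover counting error over peaks only, and peaks of 1 animal pool are not independent replicates.

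The signals of X peaks ran from 16.3 to 126.1 with a median of 20.6 and quartiles of 18.2 and 25.4, while those of autosomal peaks had a median of 22.7, an upper quartile of 31.9 and a highest value of 717. By rank among the 16940 nuclear peaks, the median X peak was at rank 10421 and the median autosomal peak at rank 8471. The strongest X peak was at rank 368, and 6 X peaks were among the 1000 of highest signal. The strongest 10% of ranks held 20 X peaks (1.32%) and 1445 autosomal peaks (9.70%). The X share climbed step by step to 225 peaks (14.9%) between 80 and 90% from the top, where 1459 autosomal peaks (9.79%) stood. In the weakest 10% there were 169 X peaks (11.2%) and 1515 autosomal peaks (10.2%). X was thus short of strong peaks and had more of its peaks in the weaker steps.

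**Figure D1:**
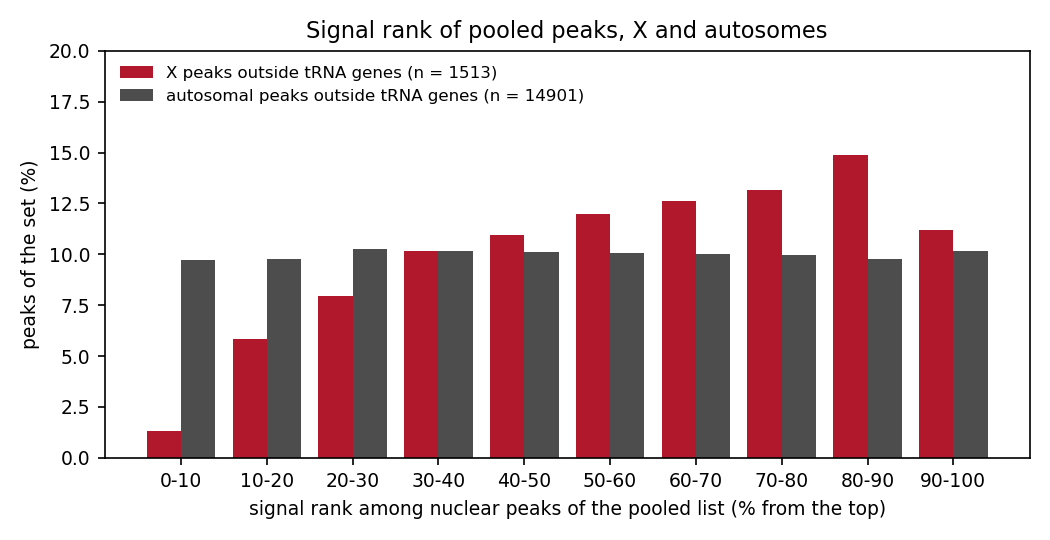
Share of X peaks (red) and autosomal peaks (grey) outside tRNA genes, in percent of each set, that fell in each step of 10% of signal rank, from the strongest at the left. X holds 1.32% of its peaks in the first step, against 9.70% for the autosomes, and most in the step from 80 to 90%, at 14.9% for X and 9.79% for the autosomes.

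Each replicate taken alone gave the same order. In replicate 2, 22 of 1785 X peaks (1.23%, Wilson interval 0.815 to 1.86) were among its 1667 highest entries, as many as the IDR list holds, against 1422 of 16125 autosomal peaks (8.82%, 8.39 to 9.27). In replicate 1 the counts were 28 of 2058 X peaks (1.36%, 0.943 to 1.96) and 1393 of 16448 autosomal peaks (8.47%, 8.05 to 8.90). The median rank was 62.6% from the top for X and 49.5% for the autosomes in replicate 2, and 61.2% for X and 49.5% for the autosomes in replicate 1.

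X peaks were also thinner on the ground. They numbered 85.4 per Mb of X and 181 per Mb of autosome, with single autosomes from 129 per Mb on V to 235.3 on III. For the IDR list the densities were 1.07 per Mb on X and 17.1 per Mb on the autosomes. X carries 154 coding genes per Mb and the autosomes 209, and promoter windows cover 17.6% of X and 22.3% of the autosomes, so the ratio of the sets was further from even for IDR peaks than for genes.

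Of the 19 X peaks in the IDR list, 8 had their summit in the promoter window of a coding gene, which runs from 1000 bp upstream to 200 bp downstream of its 5′ end. The strongest X peak of all (chrX:6207615-6208034, signal 126.1) lay in intergenic DNA 138 bp upstream of T13C5.6, with signals of 61.1 in replicate 1 and 66.0 in replicate 2, at ranks 226 and 504 of those lists. It was high in both replicates. Its summit also lay 10 bp from the 5′ end of the noncoding gene C14F11.14. The peak 444 bp upstream of epn-1, the worm epsin, which acts in clathrin-mediated endocytosis, reached a pooled signal of 89.4 (chrX:14818748-14819167), with 26.9 in replicate 1 and 61.5 in replicate 2. The epn-1 summit also lay 23 bp from the 5′ end of the noncoding gene T04C10.8. The peak in the intergenic DNA between C27C12.1 and C27C12.4, 227 and 97 bp upstream of them, had a pooled signal of 74.3 (chrX:14853779-14854198), with 35.0 in replicate 1 and 37.7 in replicate 2. These 3 peaks reach 4 genes, since the last stands in a promoter window on each side.

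A further group lay close to the 5′ ends of coding genes. The summit 9 bp upstream of pdi-6, a protein disulfide isomerase of the endoplasmic reticulum, had a pooled signal of 66.7 (chrX:7068362-7068781), with 29.7 in replicate 1 and 35.9 in replicate 2. The summit in the 5′ UTR of hsp-3, at its 5′ end, had a pooled signal of 61.5 (chrX:6091914-6092333), with 35.4 in replicate 1 and 28.0 in replicate 2. The gene hsp-3 encodes an Hsp70 chaperone of the endoplasmic reticulum. The summit 19 bp upstream of sorf-1, which acts in endosome maturation, had a pooled signal of 62.9 (chrX:3379057-3379476), with 21.8 in replicate 1 and 40.6 in replicate 2.

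The replicates were least alike at apy-1, an apyrase gene. Its summit, 162 bp upstream (chrX:7569674-7570093, pooled signal 59.8), had a signal of 9.71 at rank 12740 in replicate 1 and of 47.8 at rank 1023 in replicate 2, low in replicate 1 and high in replicate 2. The remaining promoter peak, 316 bp upstream of ZK816.3 and inside the noncoding genes ZK816.8 and ZK816.9 (chrX:3347865-3348284, pooled signal 67.4), had 30.2 in replicate 1 and 35.9 in replicate 2.

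The other 11 IDR peaks on X lay outside promoter windows, 6 of them with one of the printed words within 50 bp of the summit. The strongest, in intergenic DNA (chrX:11093979-11094398, signal 108), had 46.8 in replicate 1 and 60.1 in replicate 2. The next, inside a pseudogene (chrX:1837683-1838102, signal 91.1), had 37.7 in replicate 1 and 52.6 in replicate 2. Both were among the higher X peaks of each replicate. The intergenic peak at chrX:16681935-16682354 (signal 85.8) was uneven, with 15.8 at rank 4151 in replicate 1 and 71.8 at rank 413 in replicate 2, the highest replicate 2 signal of the 19. The last of the 4 with GCGCAGGG within 50 bp of the summit lay in a coding exon of pks-1, a polyketide synthase gene (chrX:5429420-5429839, signal 74.1). It had 36.6 in replicate 1 and 37.0 in replicate 2.

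The variant GCGAAGGG stood at a coding exon of mom-1, the worm porcupine gene needed to make secreted Wnt proteins (chrX:6296281-6296700, signal 78.5), with 32.5 in replicate 1 and 46.0 in replicate 2. The interval of the mom-1 peak also holds GCGCAGGG on the plus strand, from 57 to 64 and from 85 to 92 bp off its summit. The variant also stood at an intergenic peak (chrX:9465643-9466062, signal 59.0), with 17.5 in replicate 1 and 38.0 in replicate 2. Of the 5 peaks with neither word within 50 bp of the summit, 1 was in an intron of ldb-1, a LIM domain-binding cofactor gene (chrX:11031248-11031667, signal 78.2), with 27.02 in replicate 1 and 51.0 in replicate 2. The other 4 were intergenic, with pooled signals from 59.8 to 79.7. One of them (chrX:13700647-13701066, signal 73.6) holds GCGAAGGG on the minus strand from 47 to 54 bp off its summit, partly outside that window.

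The limit of the IDR list fell within a narrow run of signals. Just inside it stood the peaks with signals of 59.8 at chrX:16056359-16056778, 59.8 at apy-1 and 59.0 at chrX:9465643-9466062. Just outside stood the intergenic peak at chrX:806553-806972 (58.4), which holds GCGCAGGG, the peak 303 bp upstream of oga-1 (58.0), the O-GlcNAcase gene, and the peak 256 bp upstream of adm-4 (57.5), an ADAM family metalloprotease gene. The next 3 lay 996 bp upstream of fbxb-58 (56.8), upstream of both dnj-14 and glit-1, 330 bp from dnj-14 (56.4), and 889 bp upstream of F39F10.2 (55.7). At the tRNA limit the nearest X peaks kept lay 552, 603 and 693 bp from a tRNA 5′ end, with signals of 21.9, 26.4 and 17.8. The farthest left out lay 266, 252 and 247 bp away, with signals of 19.1, 16.3 and 38.7, and none of these 6 was in the IDR list.

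Fewer X summits than autosomal ones lay in promoter windows. The counts were 430 of 1513 X peaks (28.4%, Wilson interval 26.2 to 30.7) and 5473 of 14901 autosomal peaks (36.7%, 36.0 to 37.5), with 36% over both sets. Promoter windows cover 17.6% of X and 22.3% of the autosomes, so each share was above its own coverage and the coverage differed in the same direction. In the IDR list they were 8 of 19 on X (42.1%, 23.1 to 63.7) and 1040 of 1410 on the autosomes (73.8%, 71.4 to 76.0). Outside the IDR list the shares were 28.2% on X and 32.9% on the autosomes. In replicate 2 alone they were 25.2% (23.3 to 27.3) on X and 36.1% (35.4 to 36.8) on the autosomes, and in replicate 1 alone 24.1% (22.3 to 25.996) on X and 34.2% (33.4 to 34.9) on the autosomes.

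**Figure D2:**
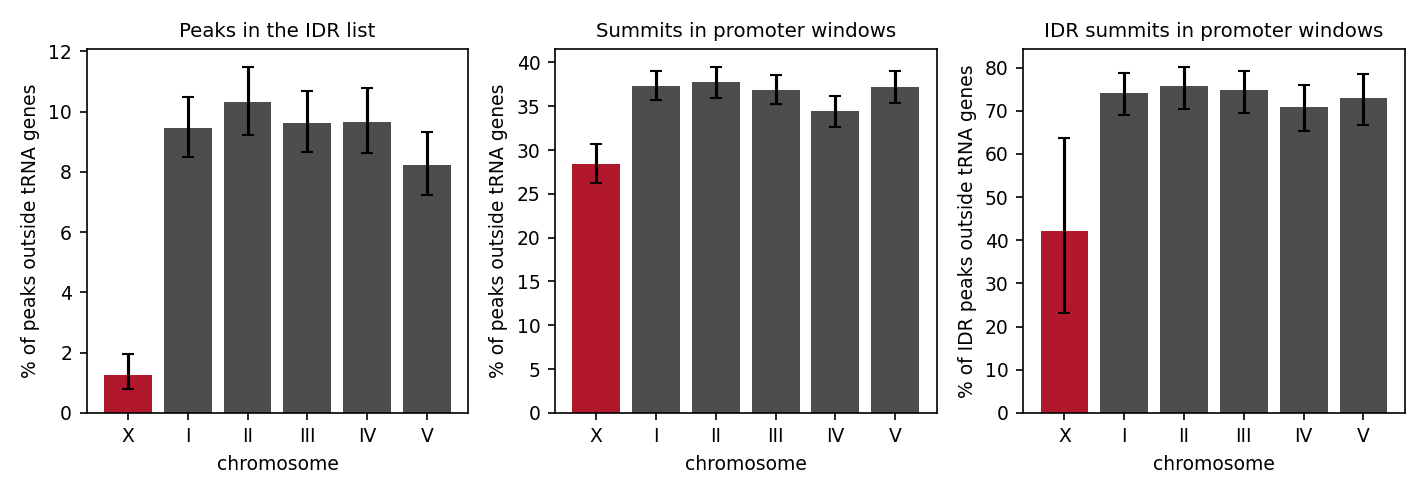
Share of peaks outside tRNA genes, in percent, that were in the IDR list (left), had a summit in a coding promoter window (middle) and, among IDR peaks, had a summit in a promoter window (right), with X in red at the left of each panel and the autosomes in grey. Bars are shares and whiskers 95% Wilson intervals over peaks. X has the lowest share in the left panel, 1.26%.

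The difference was widest among the strongest peaks. Among nuclear ranks 1 to 2000, 16 of 32 X summits (Wilson interval 33.6 to 66.4%) and 72.0% of autosomal summits (69.8 to 74.0) lay in promoter windows. X peaks stood lower within this class. The strongest 10% of ranks held 20 of the 32 X peaks and 1445 of the 1701 autosomal ones. The part of this in the difference was not tested. At ranks 2001 to 4000 the shares were 44.9% on X and 50.9% on the autosomes, at ranks 4001 to 8000 they were 33.1% on X and 35.2% on the autosomes, and at ranks 8001 to 12000 they were 27.02% on X and 28.6% on the autosomes. Below rank 12000 they were 21.9% on X and 25.1% on the autosomes. The intervals were apart in the first of these classes and overlapped in the other 4.

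**Figure D3:**
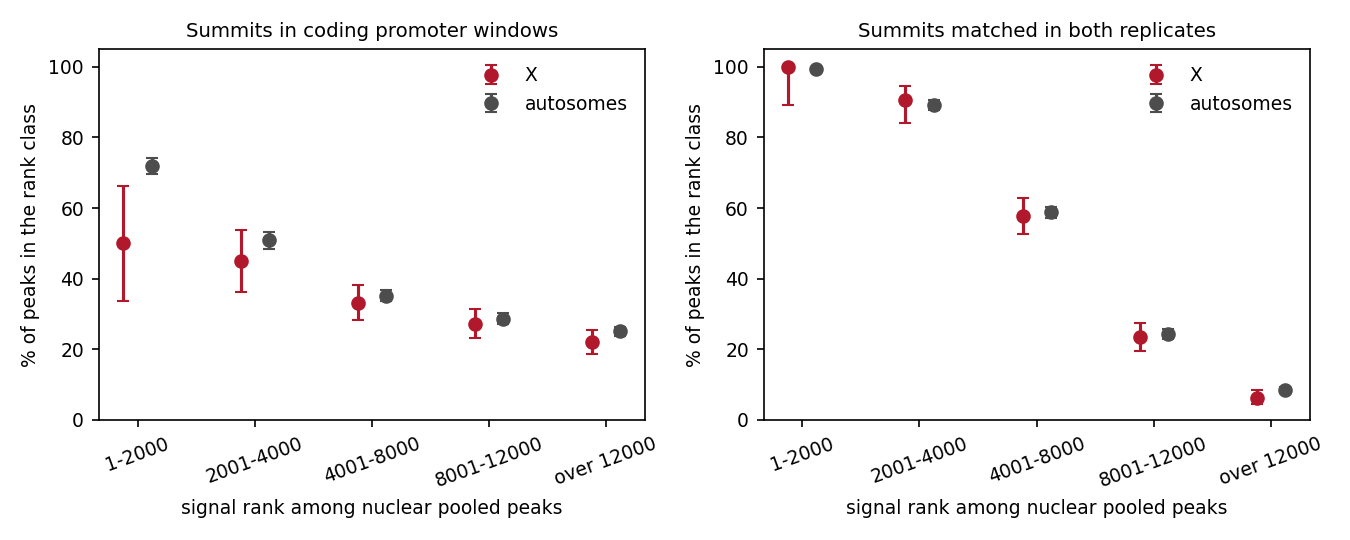
Share of summits in coding promoter windows (left) and share matched in both replicates (right), in percent of the peaks of each class of signal rank, for X (red) and autosomes (grey). Points are shares and whiskers 95% Wilson intervals over peaks. In the promoter panel X stands apart in the strongest class, 16 of 32 X summits against 72.0% of autosomal ones, and in the right panel the sets run together.

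By annotation, 654 X summits (43.2%) were intergenic, 380 (25.1%) in introns, 312 (20.6%) in coding exons, 36 (2.38%) in 5′ UTRs, 57 (3.77%) in 3′ UTRs and 74 (4.89%) in noncoding genes. On the autosomes the shares were 37.2% intergenic, 26.9% in introns, 23.1% in coding exons, 2.58% in 5′ UTRs, 7.29% in 3′ UTRs and 2.95% in noncoding genes. Of the 19 IDR peaks on X, 13 were intergenic.

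The IDR list reached 9 of 2731 coding genes on X (0.330%, Wilson interval 0.173 to 0.625) through promoter windows, against 1500 of 17242 autosomal coding genes (8.70%, 8.29 to 9.13) and 7.56% of all coding genes. The 9 were T13C5.6, epn-1, C27C12.1, C27C12.4, ZK816.3, pdi-6, sorf-1, hsp-3 and apy-1. Any pooled peak outside tRNA genes reached 420 X genes (15.4%, 14.1 to 16.8) and 5561 autosomal genes (32.3%, 31.6 to 33.0), with 29.9% over all coding genes. With peaks at tRNA genes kept, the IDR list reached 30 X genes.

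No X gene of the 21 gene lists was reached by the IDR list. The lists hold 211 genes on X, for which a count of 0 allows a share of up to 1.42%, and on the autosomes 185 of 2641 genes (7.005%) were reached. Over all coding genes the IDR shares were 0.330% on X and 8.70% on the autosomes. The share over all X genes lies below 1.42%, so the 0 does not set the list genes apart. Pooled peaks of any signal reached 32 of the 211 X genes (15.2%) and 567 of the 2641 autosomal genes (21.5%). Over all coding genes these shares were 15.4% on X and 32.3% on the autosomes. The lists were chosen with earlier results of these data known.

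Genes of protein synthesis and respiration are few on X, and several of them carried a peak outside the IDR list. All 3 translation factor genes on X had one, eef-1A.2 (elongation factor 1 alpha, signal 40.0) and the cap-binding factors ife-4 (30.2) and ife-2 (25.6), as did 36 of 39 on the autosomes. Of 3 respiratory chain genes on X, ucr-2.1 (45.004) and ucr-2.2 (41.6), core subunits of complex III, had one, as did 30 of 36 on the autosomes. Of 2 ribosomal protein genes on X, rpl-11.2 (33.2) had one, as did 75 of 80 on the autosomes. The 1 splicing gene on X had none, whereas 35 of 40 on the autosomes had one. None of these X signals reached the lowest signal of the IDR list, 58.8. The peaks at ucr-2.1, ucr-2.2 and eef-1A.2 were among the 100 X peaks of highest signal, which reach down to 37.8.

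Among regulators of X itself, 2 of 6 sex determination and dosage compensation genes on X had a pooled peak, against 6 of 8 on the autosomes. Over all coding genes the shares with a pooled peak were 15.4% on X and 32.3% on the autosomes. The lists in this paragraph hold at most 8 X genes each, too few to set them apart from X genes as a whole. These were ceh-39 (38.1), an X signal element that counts X chromosomes, and sdc-2 (34.6), which brings the dosage compensation complex to X. Of 8 chromatin genes on X, 3 had a peak, the linker histone gene his-24 (33.6), the H3K27 demethylase gene utx-1 (31.1) and lin-15B (16.6), against 15 of 21 on the autosomes. The heterochronic gene lin-14, which sets the timing of larval development, had a peak of 28.6, the only one among 4 on X, against 4 of 7 on the autosomes. Of the 2 X genes in the list of germline and oocyte genes, the Pumilio gene puf-9 had one (31.6), against 24 of 28 on the autosomes. These counts describe that list only and not all germline genes.

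Families used in neurons, muscle and skin had a peak at a minority of members on both kinds of chromosome. So did coding genes as a whole, at 15.4% on X and 32.3% on the autosomes. On the autosomes the unc genes (32.1%) were near that share. The other families counted there below lay under it, from 5.71% for chemoreceptors to 25% for homeobox genes. On X the family shares lay on both sides of 15.4%, from 4.55% for homeobox genes to 33.3% for C-type lectins, which are 3 genes. These differences were not tested. Homeobox genes had a peak at 1 of 22 members on X and 14 of 56 on the autosomes, nuclear hormone receptors at 3 of 23 on X and 32 of 246 on the autosomes, and collagens at 3 of 31 on X and 26 of 145 on the autosomes. Neuropeptide genes had a peak at 3 of 34 on X and 23 of 106 on the autosomes, with the highest X signal at the insulin-like gene ins-39 (44.7). Potassium channel genes of the twk family had a peak at 1 of 10 on X and 4 of 34 on the autosomes, acetylcholine receptor genes of the acr family at 1 of 6 on X and 3 of 15 on the autosomes, and unc genes at 4 of 16 on X and 25 of 78 on the autosomes. Chemoreceptor genes had one at 2 of 33 on X and 76 of 1331 on the autosomes, and C-type lectins at 1 of 3 on X and 30 of 237 on the autosomes. Yolk protein genes had a peak at 1 of 5 on X, vit-2 (17.6), near the floor of the list.

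Noncoding genes were scored by a summit within 500 bp of the 5′ end. MicroRNA genes had a summit at 16 of 74 on X and 69 of 187 on the autosomes, of which 0 on X, which allows a share of up to 4.05% of the 74, and 13 on the autosomes were in the IDR list. The highest X signals were at mir-8196a (46.3), at mir-54 and mir-55, which share a peak (40.4), and at mir-1829b (35.6). Small nucleolar RNA genes, which guide modification of ribosomal RNA, had one at 5 of 33 on X and 175 of 313 on the autosomes, with 0 on X, which allows up to 9.09% of the 33, and 94 on the autosomes in the IDR list. Spliceosomal small nuclear RNA genes had one at 1 of 3 on X and 62 of 126 on the autosomes. The large class annotated only as ncRNA had one at 305 of 2520 on X (12.1%) and 1175 of 5244 on the autosomes (22.4%), with 7 on X and 196 on the autosomes in the IDR list. The piRNA genes had one at 12 of 162 on X (7.41%) and 840 of 15201 on the autosomes (5.53%), with 0 on X and 28 on the autosomes in the IDR list. The X share rests on 12 genes, and the difference was not tested. Long intergenic RNA genes had one at 6 of 38 on X and 28 of 156 on the autosomes, pseudogenes at 6 of 178 on X and 213 of 1950 on the autosomes, and antisense RNA genes at 0 of 7 on X and 18 of 93 on the autosomes.

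Along X the peaks were spread over the whole chromosome. The 17 full bins of 1 Mb held from 59 to 116 X peaks, with a median of 81. The fewest were in the first Mb at the left end (59 in the pooled list, 86 in replicate 1 and 67 in replicate 2) and the most pooled peaks in the bin from 16 to 17 Mb (116 in the pooled list, 135 in replicate 1 and 124 in replicate 2). In replicate 1 that bin was also the fullest, whereas in replicate 2 the bin from 15 to 16 Mb was, with 132. Over the 17 bins the pooled counts were unrelated in rank to the number of coding genes, which ran from 108 to 191 per bin (Spearman's rho = -0.0012, a description over bins of 1 chromosome). The IDR peaks stood in 11 of all 18 bins.

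Fewer X peaks than autosomal peaks were found in both replicates. A summit within 200 bp was present in both replicate lists for 483 X peaks (31.9%, Wilson interval 29.6 to 34.3) and for 6569 autosomal peaks (44.1%), with 43% over both sets. Of the X peaks, 909 (60.1%) had a match in 1 replicate and 121 (7.997%) in neither. The pooled list was made from the reads of both replicates, so a match is not independent of it.

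Among peaks of like rank the shares were close. The shares found in both replicates were 100% on X and 99.4% on the autosomes at ranks 1 to 2000, 90.7% on X and 89.3% on the autosomes at ranks 2001 to 4000, and 57.8% on X and 58.8% on the autosomes at ranks 4001 to 8000. Below that they were 23.3% on X and 24.2% on the autosomes to rank 12000, and 6.14% on X and 8.36% on the autosomes beyond it. In both sets the share fell with rank, and 37.7% of X peaks against 29.1% of autosomal peaks lay beyond rank 12000. The part of this in the lower agreement on X was not tested.

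The 2 replicate lists can also be set against each other without the pooled list. Among the 100 strongest X peaks in replicate 1, 45 were matched within 200 bp by one of the 100 strongest X peaks in replicate 2, and 44 were matched the other way round. Among the 100 strongest autosomal peaks both counts were 67. The 100 strongest X peaks reached down to nuclear rank 2933 in replicate 1 and 3155 in replicate 2, and the 100 strongest autosomal ones to rank 102 in replicate 1 and 100 in replicate 2, so these sets are not of like rank. Of the 19 IDR peaks on X, 15 (78.9%) were matched among the 1667 highest entries of replicate 1 and 14 (73.7%) among those of replicate 2. Of autosomal IDR peaks, 82.6% were matched in replicate 1 and 90.4% in replicate 2. These sets are not of like rank either, since only 4 of the 19 were above the median signal of the IDR list. Among X peaks found in both replicates, the replicate signals had a Spearman's rho of 0.379 over 483 peaks, and for autosomal peaks it was 0.652 over 6569, a description over peaks that share libraries. The X signals spanned a narrower range, up to 61.1 in replicate 1 and 71.8 in replicate 2, against up to 299 in replicate 1 and 420.1 in replicate 2 for the autosomal ones. Over the 19 IDR peaks on X the rho was -0.056. The 19 are few and had been selected by high pooled signal, itself made from both replicates. This rho therefore cannot measure how well the replicates agree.

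**Figure D4:**
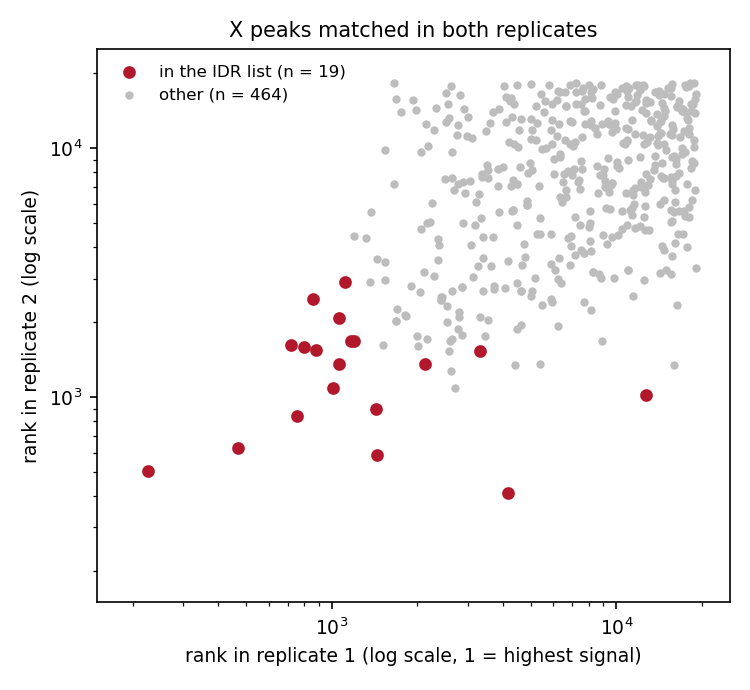
Rank of each X peak in replicate 1 (x axis) and replicate 2 (y axis) on log scales, where 1 is the highest signal, for X peaks with a summit within 200 bp in both lists. The 19 peaks of the IDR list are in red and the others in grey, and the apy-1 peak stands far to the right at rank 12740 in replicate 1 and 1023 in replicate 2.

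The dosage compensation word GCGCAGGG was more frequent at the strong X peaks than at weaker X peaks or autosomal peaks, though most strong X peaks lacked it. Searched on both strands within 50 bp of the summit, it stood at 4 of 19 IDR peaks on X (21.1%, Wilson interval 8.51 to 43.3), at 9 of the 100 X peaks of highest signal, which include those 19, and at 2 of the other 1413 X peaks (0.142%). On the autosomes it stood at 2 of 1410 IDR peaks (0.142%) and at 7 of all 14901 peaks (0.0470%). In the windows 500 bp to each side of the X summits it stood in 0 of 3026, which allows a share of up to 0.0991%. Of all windows of the same length tiled over the chromosomes, 0.0388% on X and 0.0263% on the autosomes hold it.

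The same comparison was made at like rank, in other sets and in each replicate. Of the 2376 autosomal peaks in the rank range of the 100 strongest X peaks, 1 held it (0.0421%). Among the 234 X peaks at tRNA genes 0 did, which allows a share of up to 1.28%. In the separate replicate lists it stood at 7 of the 100 strongest X peaks of replicate 1 and at 6 of those of replicate 2. Counted from the sequence, 26 of the 81 copies on X (32.1%, 22.9 to 42.9) lay within 200 bp of an X summit, and 25 of the 233 autosomal copies (10.7%, 7.37 to 15.4) lay within 200 bp of an autosomal summit. The X peaks with the word had signals from 17.1 to 108 with a median of 53.3, against a median of 20.6 for those with neither word.

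The variant GCGAAGGG, chosen after the summits' sequences were seen, stood at 2 of the 19 IDR peaks on X, at 5 of the 100 strongest and at 11 of all 1513, against 22 of 14901 autosomal peaks (0.148%). Of all tiled windows on X, 0.0730% hold it. The words differ by a letter, so a match to one is never a match to the other, and 1 or both stood at 20 X peaks (1.32%) and 29 autosomal peaks (0.195%). In the IDR list on X, 0 of 8 peaks in promoter windows and 6 of 11 outside them held a word. Among the 100 strongest X peaks, 3 of 50 in promoter windows and 9 of 50 outside them did. Anywhere in the interval of the peak, 420 bp wide at the median in both sets, one of the words was held by 7 of the 19 IDR peaks on X (36.8%, Wilson interval 19.1 to 59.0) and by 8 of the 1410 autosomal IDR peaks (0.567%, 0.288 to 1.12).

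**Figure D5:**
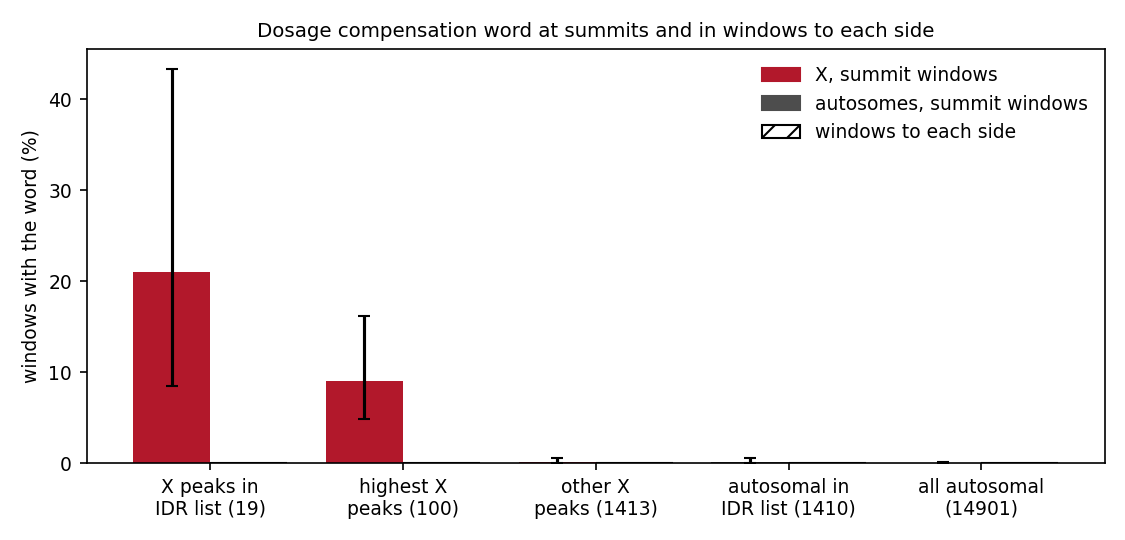
Share of windows, in percent, that hold GCGCAGGG on either strand within 50 bp of the summit (filled, red for X and grey for autosomes) and within 50 bp of the points 500 bp to each side (hatched). Whiskers are 95% Wilson intervals over peaks, the 100 strongest X peaks include the 19 of the IDR list, and the share is 21.1% in X peaks of the IDR list and 0.142% in autosomal ones.

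Forkhead words had like shares at X and autosomal summits, but not relative to the DNA around them. TGTTTAC stood at 20 X summits (1.32%) and at 1.29% of autosomal ones, with 1.49% of the windows to each side of the X summits and 1.55% of all X windows, and at 0 of the 19 IDR peaks on X, which allows a share of up to 15.8%. Beside the autosomal summits 0.960% of windows held TGTTTAC, and in the autosomal IDR list it stood at 1.91% of summits, with 0.745% of the windows beside them. TGTTTGC stood at 46 X summits (3.04%) and 2.97% of autosomal ones, with 2.08% of the windows beside the X summits and 1.96% of all X windows, and at 1 of the 19. Beside the autosomal summits 1.55% of windows held TGTTTGC, and in the autosomal IDR list it stood at 7.09% of summits, with 1.88% of the windows beside them. Among autosomal peaks in the rank range of the 100 strongest X peaks 5.98% held it, against 5 of those 100 X peaks. No match says only that these letters are not within 50 bp of a summit. GAGAGA stood at 178 X summits (11.8%) and at 9.41% of autosomal ones, with 5.68% of the windows beside the X summits and 4.91% of all X windows. It stood at 22 of the 100 strongest X peaks (Wilson interval 15.0 to 31.1%) and at 12.04% (10.8 to 13.4) of autosomal peaks in their rank range, and these intervals were apart. GCGCGC stood at 46 X summits (3.04%) and at 3.46% of autosomal ones, with 0.793% of the windows beside the X summits and 0.572% of all X windows. Among the 100 strongest X peaks 8 held GCGCGC, against 8.88% of autosomal peaks in their rank range. GCGCGC can overlap GCGCAGGG through the letters GCGC that both hold. CACGTG stood at 31 X summits (2.05%) and at 2.66% of autosomal ones, with 1.78% of the windows beside the X summits and 1.32% of all X windows. The 21U-RNA upstream word CTGTTTCA stood at 5 X summits (0.330%) and at 0.537% of autosomal ones, with 0.925% of the windows beside the X summits and 0.689% of all X windows.

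The base composition of the summits moved with these counts. The median GC content within 50 bp of the summit was 42.6% for X peaks and 39.6% for autosomal peaks, and in the IDR list it was 51.5% for X peaks and 45.5% for autosomal peaks, on chromosomes of 35.2% GC for X and 35.5% for the autosomes. Its part in the word counts was not tested.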

How the data were processed

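ChIP-seq peak lists of 1 group of 2 biological replicates were used. The authors deposited 4 lists on ce11 and 4 on ce10, for each replicate, the pooled reads and IDR, with 1 control file behind all of them, per the deposited text listings. A fault in that control would reach both replicates, and its reads were not used here. Signal in the deposited lists is the authors' value per peak. The deposited −log10 q-values were not used for ranking, and the other deposited value used is the summit offset. The aligner, the peak caller, the IDR threshold and the handling of reads that map to several places were not given in the sources used here. Every column was tied to a replicate or to the pooled group, and 0 were left over.

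Summits were joined to Ensembl genes of WBcel235 (ce11), and sequence was read from RefSeq WBcel235. Mitochondrial entries were left out of ranks. Python 3.11.15, numpy 2.4.6, pandas 2.3.3, scipy 1.17.1 and matplotlib 3.10.9 were used, and the counting was tested on simulated data. Wilson intervals (95%) describe counting error over peaks and nothing else. No test was made, since there is 1 group. Named peaks were the 25 X peaks of highest signal found in both replicates, up to 4 genes of each list or class, those nearest each limit, and the fullest and emptiest bins. Some of these are given only as counts and ranges. The members and lists were chosen with earlier results of these data known. Alternatives changed the tRNA distance, the promoter window, the match distance, the IDR list, the build and the list of peaks.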

Additional observations from a re-analysis of the deposited data

How the results depend on the processing

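Of the recomputed values, 30 were counted as the same and 21 as moved. The limits were wide enough that some counted as the same still differed, as given below. With a single replicate in place of the pooled reads, the median rank of X peaks was 61.2 to 62.6% from the top, the promoter share 24.1 to 25.2%, the X to autosome ratio of density 0.516 to 0.583 (0.473 pooled), the share matched in the other list 24.3 to 27.8%, the X genes reached 12 to 15, the word GCGCAGGG at 6 to 7 of the 100 strongest X peaks, and the share of nuclear peaks on X 10.9 to 12.1% (10.3% pooled), with peaks at tRNA genes counted in only these last shares. X peaks counted 1785 to 2058, those among the strongest entries 22 to 28, and list genes reached 37 in each. The promoter share was 19.1% with a window of 500 bp upstream to 100 bp downstream and 38.8% with 2000 bp upstream. Agreement was 23.1% with summits within 100 bp and 37.9% with overlapping intervals. IDR peaks above the median signal of that list included 4 on X outside tRNA genes. With peaks at tRNA genes kept, 30 X genes were reached. Chosen after seeing the data, a window reaching 100 bp to each side found GCGCAGGG at 11 of the 100 and the whole peak interval at 14, CGCAGGG stood at 11, GCGAAGGG at 5 and either 8-letter word at 12. The causes were not tested.

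No paired analysis was possible because the design has 1 group. Depth is unknown, so weak peaks cannot be told from background, and 19 IDR peaks limit every share taken over them.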

Other observations

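The promoter peaks at T13C5.6 and ZK816.3 share a stretch of identical sequence. Their intervals hold a common run of 34 bases, of which the first 30, at chrX:6207919-6207948 on the plus strand, are ctgaatgatgacgcttcggcccatcctcta. These 30 bases occur 3 times on X and 0 times on the autosomes, 2 of the copies lie in X peaks, and the nearest tRNA gene to any copy is 12209 bp away. The part of this repeat in either signal was not tested.

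Of the 9 X genes reached by the IDR list, pdi-6 and hsp-3 encode folding proteins of the endoplasmic reticulum. This grouping was made after the values were seen and carries no test.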
